A study of Drosophila melanogaster with 14 samples.

Results

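Poly(A)-selected RNA was set against total RNA in control fly ovaries, in 1-kb bins of the dm3 genome build. Each bin is named by its chromosome arm or scaffold and its first base, counted from 1. Bins entered when the mean of both libraries reached 1 RPKM (reads per kb and per 1000000 reads, as deposited), which left 19716 of 168744 bins. Counts were scaled to reads per 1000000 (RPM), and a bin was called poor or rich in poly(A) RNA when poly(A) RNA was at least 2-fold lower or higher than total RNA on the log2(RPM + 1) scale. That scale understates the difference of bins with few reads.

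The poly(A) library was made with oligo(dT) beads (Dynabeads) and the total library from RNA depleted of ribosomal RNA (Ribo-Zero), each once from shWhite ovaries of flies 3 to 14 days old. Those flies carried the driver P{GAL4::VP16-nos.UTR}CG6325MVD1, which acts in germline cells, and the TRiP.HMS00017 hairpin against white, inserted at attP2. A second pair, poly(A) and total RNA of shCuff ovaries, had the same driver and age and the TRiP.GL00054 hairpin against cutoff, a germline gene for piRNA precursor transcription. Further readouts were a total RNA library of shWhite ovaries that was made for a chromatin experiment (called the other total RNA library below) and a nuclear run-on library of driver flies without a hairpin. The files of these 2 libraries carry another processing code than those of the pairs; no source used here says what it stands for, and its part in values set across them was not tested. Each group had 1 library, so no difference had a replicate check, no test was possible, and differences between individual libraries and differences between kinds of RNA cannot be told apart. Intervals below are exact conditional (Clopper-Pearson) 95% intervals, which cover counting error only. In whole ovaries, fewer cells of a type and less RNA per cell cannot be told apart, and marker genes of germline and follicle cells were not checked, since gene names were not assigned to bins.

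Most mRNAs end in a poly(A) tail that oligo(dT) beads bind. RNAs without such a tail include the small nuclear RNAs of the spliceosome, the RNAs of the signal recognition particle and of the 7SK complex, and the histone mRNAs of dividing cells, which end in a stem-loop. Still growing transcripts also lack a tail, so total RNA holds them and poly(A) RNA holds fewer of them. In the ovary, piRNA clusters are loci of transposon remnants whose long transcripts are cut into piRNAs, the small RNAs that guide Piwi proteins to transposons. Dual-strand clusters give piRNAs from both strands in germline cells and depend on Rhino, Deadlock and Cutoff, and the uni-strand cluster flamenco is active in follicle cells.

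The poly(A) library held 8366673 reads in bins and the total library 3357617. In the shCuff pair they were 10932667 in poly(A) RNA and 2950394 in total RNA. Reads fell in 20.01% of bins in poly(A) RNA and in 22.0% in total RNA. The bins that entered held 99.57% of poly(A) reads and 99.11% of total RNA reads. The other total RNA library held 5688671 reads and the run-on library 2438630, both after rounding to whole reads.

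Across the 19716 bins the median log2 ratio of poly(A) over total RNA was -0.15, with quartiles of -0.54 and 0.23. Poor bins numbered 2001, or 10.1% of those compared, and rich bins 715, or 3.63%. At 4-fold, 324 bins (1.64%) were lower and 42 (0.213%) higher in poly(A) RNA. The lowest log2 ratio was -9.23 and the highest 3.07, so the poor side reached much further than the rich side. Poor bins held 0.755% of poly(A) reads and 7.09% of total RNA reads, while rich bins held 3.86% of poly(A) reads and 1.48% of total RNA reads. The split rested on the scaling. With edgeR's TMM factors the median of all bins was higher by 0.24 (log2), and 1415 bins were poor and 1387 rich. With DESeq2's size factors it was higher by 0.28, and 1400 bins were poor and 1480 rich. These size factors were 1.414 for poly(A) and 0.7071 for total RNA. Both kinds of factors were computed with bins below the filter included. The part of bins with few reads in them was not tested.

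**Figure D1:**
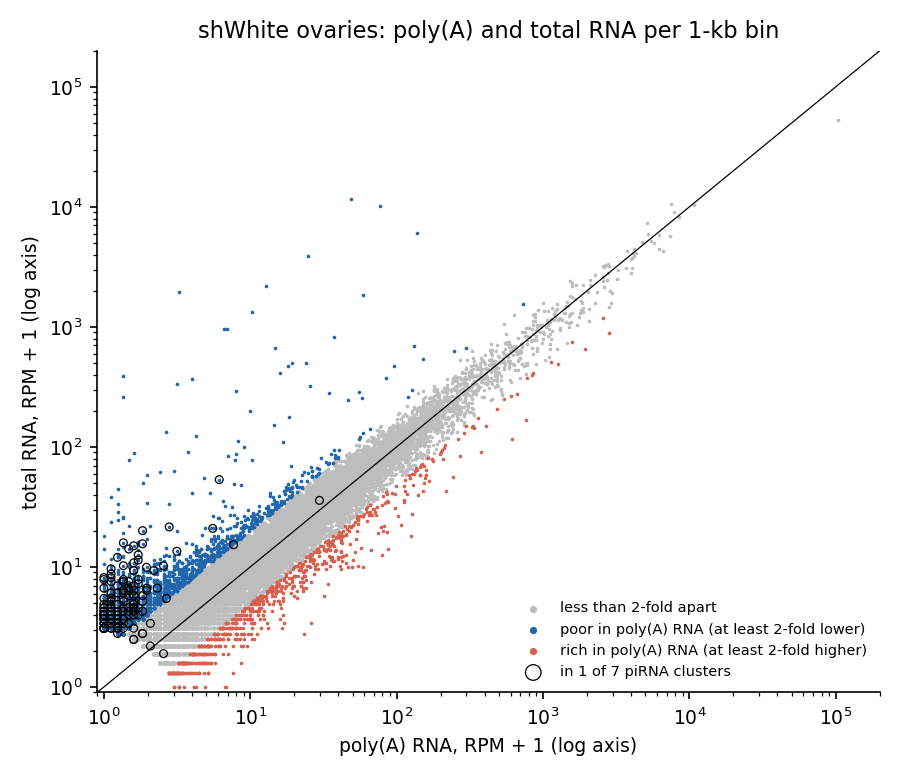
Each point is a 1-kb bin compared in shWhite ovaries, with poly(A) RNA on the horizontal and total RNA on the vertical log axis, both as RPM + 1; circles are bins of 7 piRNA clusters. The 2001 poor bins lie above the diagonal and reach log2 ratios of -9.23, and the 715 rich bins lie below it and reach 3.07.

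The poor share was highest among bins with few reads. It was 22.0% of the 3763 bins with a mean of 1 to 2 RPM, 8.17% of the 2900 bins at 5 to 10 RPM, and 1.44% of the 1528 bins at 50 to 100 RPM. The rich share moved much less over the same levels, with 2.90% at 1 to 2 RPM and 2.09% at 50 to 100 RPM. The filter itself bears on this. Of the 2001 poor bins, 1196 (59.8%) reached 1 RPKM in total RNA alone and so had to be lower in poly(A) RNA. Among the 17033 bins that reached 1 RPKM in both libraries, 805 (4.73%) were poor and 555 were rich. The poor share was 2.46% in the 1506 bins of at least 100 RPM, which held 22 of the 41 bins that were at least 16-fold lower.

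**Figure D2:**
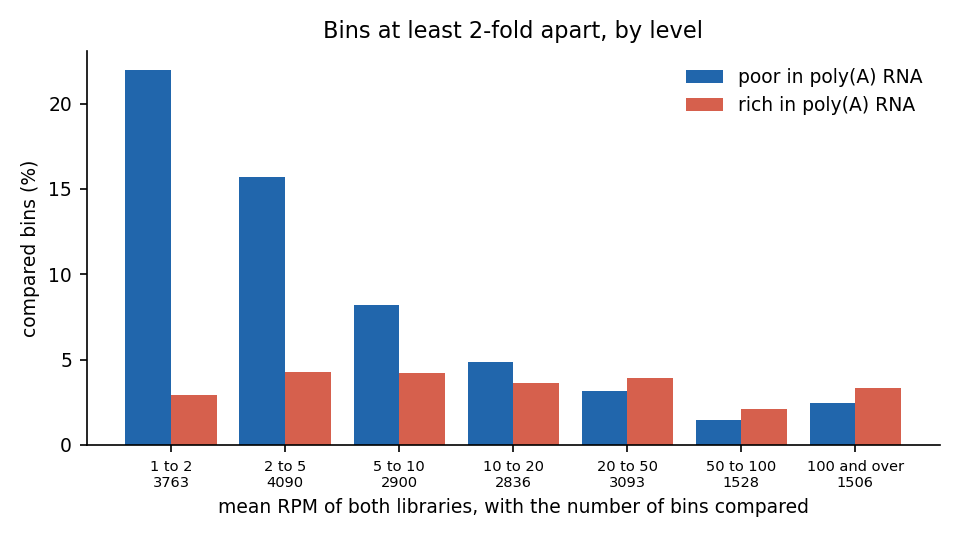
Bars give the percent of compared bins called poor (left bar) or rich (right bar) in poly(A) RNA in each class of mean RPM; the number of bins stands under each class. The poor share is 22.0% at 1 to 2 RPM and 1.44% at 50 to 100 RPM, and the rich share stays between 2.09% and 4.30%.

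A small set of bins took a large share of total RNA and little of poly(A) RNA. There were 41 bins at least 16-fold lower (0.208% of those compared), 38 of them on chromosome arms and 3 on Uextra, the scaffold of sequence not placed in the genome. Together they held 4510 poly(A) reads, or 0.0539% of that library, and 158731 total RNA reads, or 4.73%. The shCuff pair gave 0.0526% of poly(A) reads and 6.38% of total RNA reads for the same bins, and the other total RNA library gave 6.50%. In the run-on library they took 4.07% of reads. None lay in the 7 piRNA clusters, but most of these clusters had no bin high enough in total RNA for the call. With 1 RPM added, a bin with few reads cannot be 16-fold lower even without any poly(A) read. The highest bin of the main dual-strand cluster, for example, had 13.1 RPM in total RNA. The absence of these clusters thus came from their low level and has no bearing on their ratios. Levels of the 41 bins varied widely, with 0 to 136 RPM in poly(A) RNA and 17.3 to 11714 RPM in total RNA.

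These bins were mostly narrow. The level in total RNA was at the median 25.7 times the mean of the bins on either side, and 31 of the 41 stood at least 5 times above it. That median was 1.46 for all poor bins and 1.18 for bins of neither class. The 16-fold call itself admits only bins high in total RNA, with a median of 260 RPM against 8.34 RPM in all compared bins. Standing above the flanks was thus in part built in. Of the 82 bins flanking the 41, 46 were compared, and 30 of those were poor and 1 rich. Over all compared bins 10.1% were poor and 3.63% rich.

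The lowest ratio on the arms was that of 3L:18889001, with 2.27 RPM (19 reads) in poly(A) RNA and 1965 RPM (6599 reads) in total RNA. It was 865-fold lower in poly(A) RNA (554 to 1438). In shCuff ovaries it had 2.93 RPM in poly(A) RNA and 3130 RPM in total RNA. The other total RNA library had 5006 RPM there and the run-on library 230 RPM, so the bin was high in every library except those of poly(A) RNA. In RPM without the added 1, bin 3L:891001, described below, had a lower ratio, 0.000918.

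The most abundant of these bins was 3R:19555001, which alone held 1.17% of the reads of total RNA and 0.00475% of those of poly(A) RNA. It had 47.5 RPM (397 reads) in poly(A) RNA and 11714 RPM (39332 reads) in total RNA, 247-fold lower in poly(A) RNA (224 to 273). The shCuff pair gave 28.3 RPM in poly(A) RNA and 12221 RPM in total RNA. Without this bin, the ratio of summed reads on 3R was 0.913 in place of 0.863. One bin thus set much of the distance of 3R from 1.

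Bin 2R:19727001 had 5.98 RPM (50 reads) in poly(A) RNA and 960 RPM (3223 reads) in total RNA. In run-on RNA it had 14152 RPM, the highest value of any bin in that library. The neighbours 3L:890001 and 3L:891001 had 3 poly(A) reads each, against 873 and 1312 reads in total RNA, with ratios of 0.00138 (0.000284 to 0.00404) and 0.000918 (0.000189 to 0.00269). The other 3 of the 8 lowest bins on the arms, 2R:13504001, X:10242001 and X:5418001, had 5.62 to 23.8 RPM in poly(A) RNA and 957 to 3879 RPM in total RNA. The log2 ratios of all 8 were between -9.64 and -7.08 in the shCuff pair.

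Rich bins were less extreme and mostly stood alone. The highest ratio on the arms was that of X:10365001, with 22.5 RPM (188 reads) in poly(A) RNA and 1.79 RPM (6 reads) in total RNA, a ratio of 12.6 (5.67 to 34.7). In shCuff ovaries it had 24.7 RPM in poly(A) RNA and 3.05 RPM in total RNA. It lay in the longest rich stretch, 6 bins at X:10360001-10366000 with 1478 poly(A) reads and 191 total RNA reads, a ratio of 3.11.

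Bin 2L:5957001 had the most poly(A) reads among the 8 highest ratios on the arms, with 125 RPM (1045 reads) in poly(A) RNA and 17.0 RPM (57 reads) in total RNA, a ratio of 7.36 (5.63 to 9.78). Its run-on level was 1024 RPM. Bin 2R:7924001 had 49 poly(A) reads and none in total RNA. It was 6.55-fold higher when total RNA is set at a floor of 3 reads, and the interval of its ratio began at 5.13. Bin X:21887001 had 55 poly(A) reads and 1 total RNA read, a ratio of 22.1 (3.8 to 887). The other 4, 3R:19508001, 2L:2756001, X:11604001 and 2R:8066001, had 24.9 to 77.9 RPM in poly(A) RNA and 2.38 to 11.6 RPM in total RNA. All 8 had higher poly(A) than total RNA levels in the shCuff pair, with log2 ratios of 0.96 to 3.74. In the other total RNA library, however, 3R:19508001, 2R:7924001 and X:21887001 had 34.6, 10.4 and 6.68 RPM, all above their level in poly(A) RNA.

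The bins with most reads were mixed. After U:5301001, described with the scaffolds, poly(A) RNA had most reads in M:1001 and X:8376001. Both were close to even, with 10726 RPM in poly(A) RNA and 10462 RPM in total RNA in M:1001, and 8471 and 8231 RPM in X:8376001. Total RNA had most reads, again after U:5301001, in 3R:19555001, one of the lowest ratios of all, and then X:8373001, which had 7510 RPM in poly(A) RNA and 10501 RPM in total RNA.

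Poor and rich bins differed in run-on RNA, a readout not used to call them. Median run-on levels were 23.4 RPM in poor bins, 14.8 RPM in rich bins and 16.8 RPM in bins of neither class. The median level in poor bins was 0.717 RPM in poly(A) RNA and 4.17 RPM in total RNA. Rich bins had 10.8 RPM in poly(A) RNA and 3.87 RPM in total RNA. In bins of neither class the medians were 9.32 RPM in poly(A) RNA and 9.83 RPM in total RNA. At the median, poor bins thus had a run-on level above that of the bins of neither class, with less total RNA than they had. The bins at least 16-fold lower in poly(A) RNA differed, with medians of 153 RPM in run-on RNA and 260 RPM in total RNA. The run-on library came from flies with no hairpin, whose part in these values was not tested.

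Among the large arms the poor share ran from 7.70% on 3L to 11.4% on X, around the 10.1% of all bins. It was 8.91% on 2L, 10.7% on 2R and 8.81% on 3R. The rich share ran from 2.97% on 3L to 4.05% on X. Summed over each arm, poly(A) over total RNA was 0.884 on X, 1.04 on 2L, 0.989 on 2R, 0.968 on 3L and 0.863 on 3R. On X, 2R, 3L and 3R the summed ratio was above 1 with TMM factors or DESeq2's size factors, so the side of even on which these arms lay depended on the scaling. No large arm stood far from an even ratio, and their median log2 ratios lay between -0.20 (X) and -0.12 (3L).

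**Figure D3:**
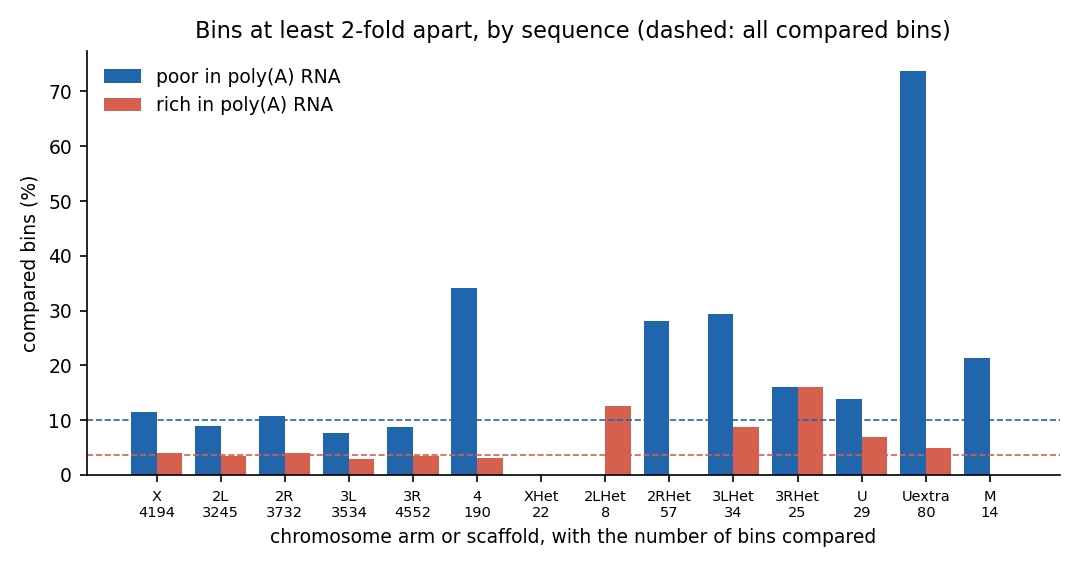
Bars give the percent of compared bins on each arm or scaffold called poor (left bar) or rich (right bar) in poly(A) RNA, with the number of bins compared under each name and dashed lines at the shares over all bins (10.1% and 3.63%). The poor share is 73.8% on Uextra, 34.2% on chromosome 4, 29.4% on 3LHet and 28.1% on 2RHet.

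Chromosome 4, a small chromosome rich in repeats whose genes lie among heterochromatin, had the highest poor share of the arms. Of its 190 compared bins, 65 (34.2%) were poor and 6 (3.16%) rich, with a median log2 ratio of -0.42. Its poor share was also higher than that of the other arms in every class of level below 50 RPM. It was 46.3% (37 of 80 bins) against 20.8% at 1 to 2 RPM and 30.9% (17 of 55) against 14.97% at 2 to 5 RPM. At 5 to 10 RPM it was 29.6% (8 of 27) against 7.63%, and at 10 to 50 RPM 17.7% (3 of 17) against 3.83%. At 50 RPM and over, 0 of 11 bins were poor, against 1.94% on the other arms. The upper classes thus hold few bins of chromosome 4. In the 112 bins of chromosome 4 that reached 1 RPKM in both libraries, 10 (8.93%) were poor, against 4.73% over all such bins. In shCuff ovaries 32.1% of its 190 bins were at least 2-fold lower in poly(A) RNA. Summed reads gave another picture, with a ratio of 1.02 (1.01 to 1.04). Bin 4:87001 decided this, with 39.3% of the poly(A) reads and 27.9% of the total RNA reads of the chromosome, and the ratio was 0.861 without it. Against the other total RNA library the log2 ratio of the summed reads was -1.15, in place of 0.03. Outside the piRNA cluster the poor share of chromosome 4 was 33.7%.

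The heterochromatic scaffolds differed among themselves. On 2RHet 16 of 57 bins (28.1%) were poor and none rich, and summed reads gave 0.618 (0.587 to 0.651). On 3LHet 10 of 34 bins were poor and 3 rich, with a summed ratio of 1.12. On 3RHet 4 of 25 were poor and 4 rich. None of 22 on XHet were poor or rich. On 2LHet 1 of 8 bins was rich and none poor. YHet, from the Y chromosome that females lack, had 0 reads in both libraries. Against the other total RNA library the log2 ratios of summed reads were -2.85 on 2RHet and -1.49 on 3LHet, in place of -0.69 and 0.16, and -1.25, -1.90 and -1.36 on XHet, 2LHet and 3RHet. On the log2(RPM + 1) scale the highest single bins were 3LHet:459001, 3LHet:410001 and 3RHet:1806001. Poly(A) RNA had 86.8, 84.7 and 66.3 RPM there, and total RNA 13.1, 18.5 and 12.8 RPM. The other total RNA library had 31.6, 13.9 and 58.9 RPM in those bins.

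Uextra had the highest poor share of all, with 59 of 80 compared bins (73.8%) poor and 4 rich. Summed reads numbered 3296 in poly(A) RNA and 4279 in total RNA over the scaffold, a ratio of 0.309 (0.295 to 0.324). Bin Uextra:1682001 held 1597 and 945 of these, and the ratio was 0.205 without it. Of the 80 bins 55 reached 1 RPKM in total RNA alone, and 10 of the 21 that reached it in both were poor. On the log2(RPM + 1) scale, the lowest ratios of Uextra were those of Uextra:15027001 and Uextra:28615001. The first had 0.359 RPM in poly(A) RNA and 25.02 RPM in total RNA, and the second 0.359 and 24.7 RPM. Bin Uextra:14662001 had no poly(A) read and 58 total RNA reads. It was 48.2-fold lower with a floor of 3 reads, and the interval of its fold began at 37.95. The next were Uextra:15782001, Uextra:12779001 and Uextra:25452001, with 0.239, 2.99 and 6.81 RPM in poly(A) RNA and 13.1, 40.5 and 76.8 RPM in total RNA. At the other end, Uextra:22269001, Uextra:28548001 and Uextra:13454001 had 48, 33 and 19 poly(A) reads and no total RNA read. The shCuff pair gave 511 RPM in poly(A) RNA and 1387 RPM in total RNA over the 80 bins, against 294 and 971 RPM in the shWhite pair. The other total RNA library had 19.3 RPM there and no read in 62 of the 80 bins, while 1.53% of all compared bins were empty in it. How reads that match several places were placed is not given in the sources used here, and its part in the values on Uextra was not tested.

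Scaffold U was dominated by 1 bin, U:5301001, the bin with most reads in both libraries. It held 104140 RPM (10.4% of reads) in poly(A) RNA and 53024 RPM (5.30%) in total RNA, a ratio of 1.96. In shCuff ovaries it had 100497 RPM in poly(A) RNA and 73113 RPM in total RNA, and in the other total RNA library 15099 RPM. Its share enters the scaling of all other bins. With it left out of the totals, 1876 bins were poor and 925 rich. Summed reads on U gave a ratio of 1.86, and 1.29 without that bin. Against the other total RNA library its log2 ratio was 2.88, in place of 0.90. On U 4 of its 29 compared bins were poor and 2 rich.

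The mitochondrial genome, whose messenger RNAs carry short poly(A) tails, had reads in 14 of its 20 bins, and 3 of these were poor and none rich. Summed reads gave a ratio of 1.14 (1.13 to 1.15), a log2 ratio of 0.19. Against the other total RNA library that log2 ratio was 3.33. Poly(A) RNA was lowest against total RNA in M:10001, with 46 reads in poly(A) RNA and 116 in total RNA, then M:9001 with 33 and 68 reads and M:6001 with 12 and 17 reads. These 3 bins had few reads, and against the other total RNA library their log2 ratios were above 0, at 1.93, 0.75 and 1.05. The highest ratio was that of M:4001, 1.95 (1.89 to 2.01), with 23684 poly(A) reads and 4885 total RNA reads. The other 10, M:1, M:1001, M:2001, M:3001, M:5001, M:7001, M:8001, M:11001, M:12001 and M:13001, had ratios of 0.639 to 1.42. These values cover reads placed on M only, and whether reads of mitochondrial RNA were placed on other sequences was not tested.

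The 7 piRNA clusters, placed on dm3 from background knowledge to the nearest kb, were together much lower in poly(A) RNA. They had 1019 reads (122 RPM) in poly(A) RNA and 3234 reads (963 RPM) in total RNA, a ratio of 0.126 (0.118 to 0.136), against 1.00 for the rest of the genome. They span 689 bins, of which 150 were compared; 140 of these were poor and none rich. Of the 150 bins 137 reached 1 RPKM in total RNA alone and so had to be lower. Of the 12 that reached it in both libraries 8 were poor, where 4.73% of all such bins were poor. These 12 were 8 bins of 20A (6 poor), 3 of 42AB (2 poor) and 1 of 80F (not poor). The other clusters had no such bin. Of the 10 compared cluster bins that were not poor, 5 lay in 42AB, 2 in 20A and 1 each in 80F, the chromosome 4 cluster and flamenco.

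Cluster 42AB on 2R, the main dual-strand cluster of the germline, at 2R:2144001-2387000, had 38.7 RPM (324 reads) in poly(A) RNA and 438 RPM (1469 reads) in total RNA, a ratio of 0.0885 (0.0782 to 0.0999). The low ratio ran along the cluster when bins were summed, but some single bins with few reads went the other way. The bin 5 kb from its first bin, for example, had 10 poly(A) reads and 1 total RNA read. In 10-kb sections with at least 10 reads, all 17 were at least 2-fold lower in poly(A) RNA, with ratios of 0.0319 to 0.213. Its bins with reads numbered 103 in poly(A) RNA and 144 in total RNA. In run-on RNA the cluster had 1086 RPM.

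**Figure D4:**
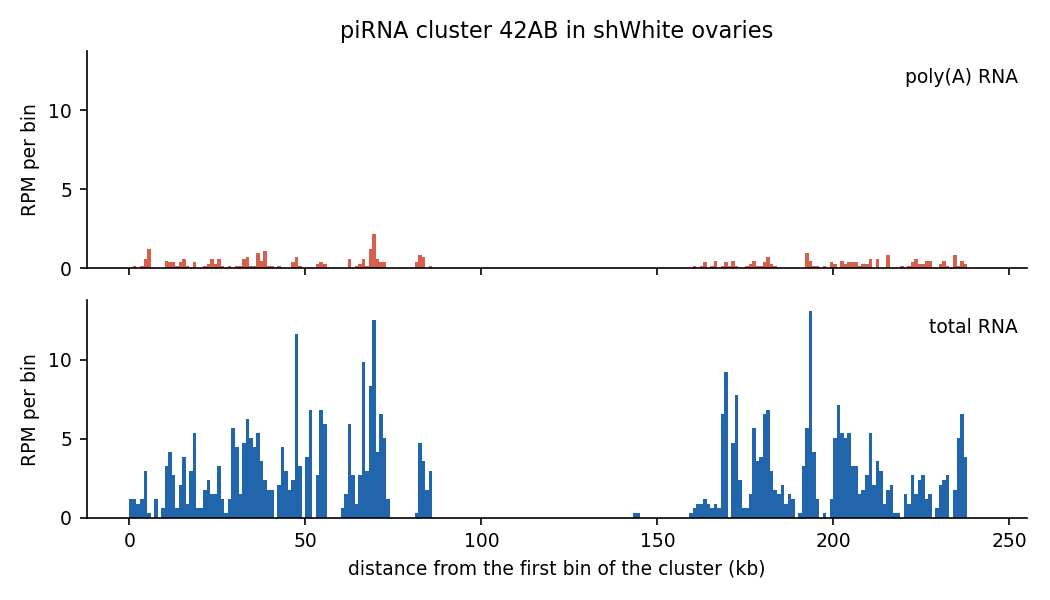
RPM per 1-kb bin along cluster 42AB in poly(A) RNA (upper panel) and total RNA (lower panel) of shWhite ovaries, on the same vertical scale; the horizontal axis is the distance from the first bin of the cluster in kb. Poly(A) RNA is low all along, 38.7 RPM in sum against 438 RPM in total RNA, and the middle of the cluster has almost no reads in either library.

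The other dual-strand clusters were also lower in poly(A) RNA. The 38C locus on 2L was taken as a short and a long cluster, with ratios of 0.0958 (0.0565 to 0.156) for 2L:20104001-20117000 and 0.0718 (0.0509 to 0.0993) for 2L:20148001-20228000. For 80F at 3L:23273001-23315000 the ratio was 0.197 (0.136 to 0.280). The chromosome 4 cluster had 45 poly(A) reads and 46 total RNA reads, the highest ratio of the 7 at 0.393 (0.254 to 0.605). Its interval lay above those of the other clusters except 80F.

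The uni-strand clusters on X differed from each other. Flamenco at X:21505001-21685000 had the lowest ratio of the 7, with 5.74 RPM (48 reads) in poly(A) RNA and 111 RPM (374 reads) in total RNA, or 0.0515 (0.0373 to 0.0697). Cluster 20A at X:21392001-21432000 had 58.5 RPM (489 reads) in poly(A) RNA and 272 RPM (913 reads) in total RNA, or 0.215 (0.192 to 0.240). Bin X:21427001 carried 240 of those poly(A) reads and 117 of the total RNA reads, and without it the ratio of 20A was 0.126.

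Against the other total RNA library all 7 clusters were still lower in poly(A) RNA, but their order was another. The log2 ratio of summed reads was then -4.17 for 80F, -2.60 for flamenco, -2.52 for the longer and -1.59 for the shorter 38C cluster, -2.24 for 42AB, -1.64 for 20A and -0.68 for the chromosome 4 cluster. Against the first total RNA library these log2 ratios were -2.35 for 80F, -4.28 for flamenco, -3.80 and -3.38 for the 38C clusters, -3.50 for 42AB, -2.22 for 20A and -1.35 for the chromosome 4 cluster.

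In shCuff ovaries the ratio was higher than in shWhite ovaries for all 5 dual-strand clusters and close to it or lower for the uni-strand clusters. For 42AB the ratio was 0.634 (0.518 to 0.779) in the shCuff pair and 0.0885 in the shWhite pair, and total RNA was 46.8 RPM in shCuff and 438 RPM in shWhite ovaries. Its poly(A) RNA was 29.6 RPM in shCuff and 38.7 RPM in shWhite ovaries. The longer 38C cluster had a ratio of 0.550 in the shCuff pair and 0.0718 in the shWhite pair, and the shorter one 0.202 (0.0579 to 0.665) and 0.0958. In the same order 80F had 0.432 and 0.197, and the chromosome 4 cluster 0.559 and 0.393, whose intervals overlapped, as did those of 80F and the shorter 38C cluster. Flamenco had 0.0368 in the shCuff pair and 0.0515 in the shWhite pair, and 20A had 0.218 and 0.215. With 1 library of each kind, these differences between genotypes were not tested.

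The histone gene repeats, whose mRNAs end in a stem-loop, could hardly be read. Over 2L:21416001-21543000 there were 9 poly(A) reads and 34 total RNA reads, in 2 and 3 of 127 bins. The ratio was 0.106 (0.0448 to 0.226), and 0.229 (0.0834 to 0.586) without bin 2L:21417001, which had 1 poly(A) read and 20 total RNA reads.

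Poor bins were spread over the arms, and dense windows lay on chromosome 4 and at piRNA clusters. In 120 windows of 1 Mb with at least 20 compared bins, the poor share had a median of 8.38% and quartiles of 6.44% and 11.6%. It reached 20% in 4 windows. The window of chromosome 4 from 1000001 had 50% (24 of 48 bins) and that from base 1 had 28.9%. The 2R window from 2000001, which holds 42AB, had 41.1% (85 of 207 bins), and 3.31% without the cluster. The X window from 21000001, which holds 20A and flamenco, had 28.5%, and 8.33% without them. The high share of both windows thus lay in the clusters.

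Poor bins formed longer stretches than rich bins. Of 1438 runs of adjacent poor bins 1112 (77.3%) were single bins, against 606 of 656 runs of rich bins (92.4%). Poor runs of 5 or more bins numbered 28, of which 6 lay in the clusters and 22 outside them, while 1 rich run was that long. The longest had 14 bins, X:9254001-9268000, with 6.34 RPM (53 reads) in poly(A) RNA and 81.9 RPM (275 reads) in total RNA, a ratio of 0.0773 (0.0565 to 0.104). It had 9.70 RPM in poly(A) RNA and 134 RPM in total RNA in the shCuff pair, and 713 RPM in run-on RNA. The next were 11 bins at X:15608001-15619000 with a ratio of 0.116, 10 bins at 4:1086001-1096000 with 0.0826 and 9 bins at 3R:20062001-20071000 with 0.0651. Run-on RNA was 689, 180 and 782 RPM over these, above total RNA at 67.9, 103 and 33.1 RPM. Of 2406 compared bins next to a poor bin 1126 were poor and 16 rich, and of 949 next to a rich bin 118 were rich and 16 poor. Over all compared bins 10.1% were poor and 3.63% rich. Poor bins thus adjoin each other more often by their frequency alone, and its part in their longer runs was not tested.

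The shCuff pair, which shares no library with the shWhite pair, gave similar ratios for most bins. The same filter left 21482 bins of that pair, of which 15% were poor and 4.03% rich. In the 18673 bins compared in both pairs, 1931 were poor in shCuff ovaries and 1702 in shWhite ovaries, and 1108 in both. The shared bins were 57.4% of the shCuff and 65.1% of the shWhite poor bins, where 10.3% of all these bins were poor in the shCuff pair. Rich bins numbered 816 in shCuff and 687 in shWhite ovaries, and the 290 shared ones were 35.5% of the shCuff and 42.2% of the shWhite rich bins, where 4.37% of all these bins were rich in the shCuff pair. Of the bins at least 4-fold lower in the shWhite pair, 275 of 324 were at least 2-fold lower in the shCuff pair, and 36 of 42 bins at least 4-fold higher were at least 2-fold higher. Across the 18673 bins Pearson's r of the log2 ratios was 0.747 and Spearman's rho 0.630; across 6125 bins of at least 20 RPM Pearson's r was 0.875. These are correlations across bins, which are not independent replicates, and each pair was scaled by its own library totals.

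**Figure D5:**
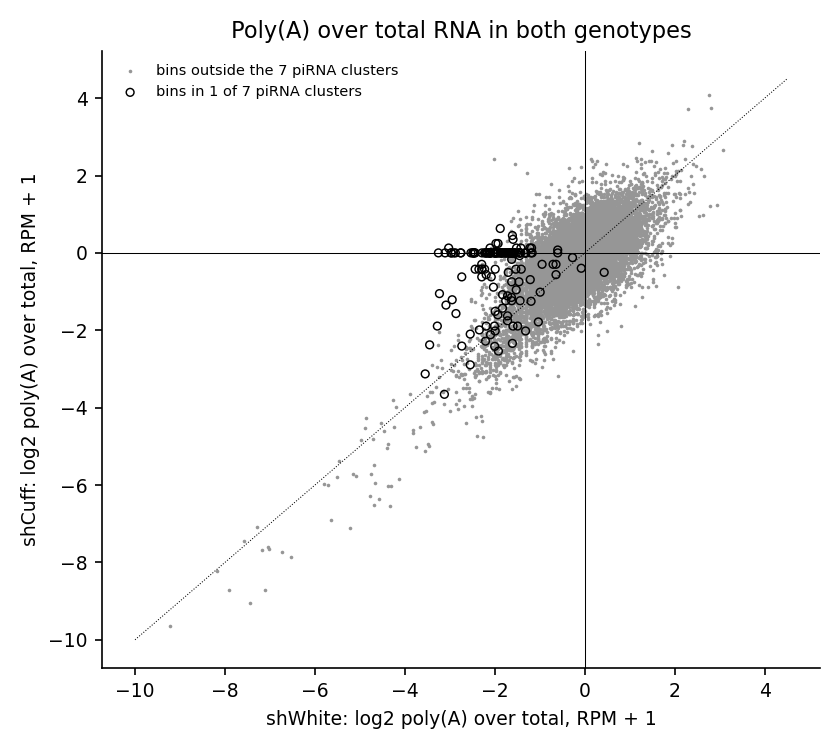
Each point is a bin compared in shWhite ovaries, with the log2 ratio of poly(A) over total RNA (RPM + 1) in shWhite ovaries on the horizontal and in shCuff ovaries on the vertical axis; circles are bins of 7 piRNA clusters and the dotted line marks equal ratios. Of the 41 bins at least 16-fold lower in shWhite ovaries, 32 lie below that line and 13 of them by more than 1, while many cluster bins lie at 0 in shCuff ovaries, where few or no reads were left.

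At the limit of the filter, 2L:10401001 and 2L:11006001 were just inside, with a mean of 1.01 RPKM and 2 poly(A) reads against 6 total RNA reads each. Just outside were 2L:1172001 and 2L:1196001, with a mean of 0.986 RPKM and 14 poly(A) reads against 1 total RNA read each.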

How the data were processed

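The deposited files give reads per 1-kb bin of dm3 as counts and as RPKM; per the submitters' processing notes, cutadapt and Bowtie 0.12.7 were used. For the authors' counter, its rule for reads that match several places and its strand setting, no source used here gives a statement. The deposited read values of the other total RNA library and the run-on library are estimated counts, exactly whole except in 2 and 8 bins, and were rounded. The deposited RPKM values equal reads per 1000000 in full bins to within 2.35e-07 in both pairs, 0.00796 in the other total RNA library and 0.418 in the run-on library.

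Deposited counts were divided by each library's sum over bins (Python 3.11.15, numpy 2.4.6, pandas 2.3.3, scipy 1.17.1), with a pseudocount of 1 RPM on the log2 scale. TMM factors (edgeR 4.0.16) and size factors (DESeq2 1.42.0) served as alternative scalings, with no test run. Other alternatives were a pseudocount of 0.1 RPM, 3 other filters, another total RNA library and the shCuff pair. The calculation was tested on simulated data. Bins named in the text are the 8 lowest and 8 highest log2 ratios on the arms, the 6 and 6 on other sequences, the 3 with most reads in each library, every covered mitochondrial bin and those at the filter's limit. Others were named after their values were seen. The members, loci and rules were chosen with earlier results of these data known. Of 14 samples listed, 6 libraries were used.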

Additional observations from a re-analysis of the deposited data

Results flagged for a closer look

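In 10 bins compared in both pairs, poly(A) RNA was at least 2-fold below total RNA in one genotype and at least 2-fold above it in the other. The difference between genotypes was not tested, since each value comes from 1 library of each kind, and these are the extremes among 18673 bins. Bin 3L:12266001 had a log2 ratio of 2.42 in the shCuff pair (87 poly(A) and 2 total RNA reads) and -2.02 in the shWhite pair (17 and 38 reads). Bin X:16226001 had 2.29 in the shCuff pair and -1.55 in the shWhite pair. The values of 2R:8648001 were 2.06 and -1.28, with 482 poly(A) and 29 total RNA reads in the shCuff pair and 69 and 72 in the shWhite pair. In the same order, 2R:8757001 had 1.53 and -1.01, X:1786001 had 1.51 and -1.09, 2L:18957001 had 1.23 and -1.13, X:7804001 had 1.09 and -1.15, and 2R:14647001 had 1.08 and -1.49. The opposite signs were seen in 2R:1041001, with -1.38 in the shCuff pair and 1.12 in the shWhite pair, and X:2176001, with -1.13 and 1.28.

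Among the bins named in the report, M:13001 had -2.02 in the shCuff pair and 0.49 in the shWhite pair, and 2L:1172001, just below the filter, had -0.38 and 1.04. Neither difference was tested.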

How the results depend on the processing

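Against 2001 poor and 715 rich bins, TMM factors gave 1387 rich bins, DESeq2's size factors 1480 and a pseudocount of 0.1 RPM 1231, with 2995 poor. With no filter 2658 bins were poor and 800 rich, and with at least 1 RPKM in total RNA 2658 and 555. A mean of at least 5 RPKM left 531 poor and 430 rich of 11863 bins, by its own construction. The shCuff pair gave 3223 poor bins. The other total RNA library in place of the first gave 12550 poor and 2489 rich of 24685 bins, and the median of all bins was lower by 0.89 (a shift of -0.89 on the log2 scale); the cause was not tested. With it the log2 ratio of Uextra was 2.37, and those of Uextra:25452001, Uextra:12779001, Uextra:28615001, Uextra:15782001 and Uextra:15027001 were 2.97, 1.996, 0.44, 0.31 and 0.21. Those of M:10001, M:6001 and M:9001 were 1.93, 1.05 and 0.75, and those of X:21887001, 3R:19508001, 2R:7924001 and 2L:1172001 were -0.0201, -0.46, -0.73 and -2.93. All these had the other sign against the first total RNA library. In the shCuff pair 2L:1172001 had -0.38. TMM factors, DESeq2's size factors and totals without the most abundant bin raised the median of all bins by 0.24, 0.28 and 0.07 (log2). Shifts of this size cannot change the sign of a value at least 2-fold from even, and none changed. The summed log2 ratios of X, 2R, 3L, 3R, XHet and 3RHet and the log2 ratio of M:8001, all negative and near even, were positive with TMM factors (0.10, 0.27, 0.23, 0.07, 0.22, 0.18 and 0.26) and with DESeq2's size factors. No paired analysis was possible because each group had 1 library, and none could be left out in turn. Depth limits bins near 1 RPKM, where 2 reads against 6 already make a poor bin.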

Other observations

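Nearly all reads of scaffold U lay in 14 adjacent bins, U:5288001-5302000, a stretch chosen after its values were seen. It held 99.9% of the poly(A) reads and 99.5% of the total RNA reads of U, which has 10050 bins. Without its most abundant bin it had 99125 poly(A) reads and 30290 total RNA reads, a ratio of 1.31 (1.30 to 1.33). The rest of U had 1189 poly(A) reads and 1049 total RNA reads, a ratio of 0.455 (0.418 to 0.495), and 4 of its 17 compared bins were poor and none rich. The high summed ratio of U therefore came from this stretch, and the remaining sequence of U was lower in poly(A) RNA. What sequence the stretch holds was not examined. Whether its reads also match other sequences, such as the mitochondrial genome, was not tested.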
